A study of Mus musculus with 22 samples.

Results

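The interleukin-1 family and its receptors were followed in bone marrow-derived macrophages (BMDM) as 9 genes, chosen by symbol from the 19505 genes that the array table named. They were the ligand genes Il1a, Il1b, Il18 and Il1f9 (also called Il36g, interleukin-36 gamma), the antagonist gene Il1rn, the gene of the interleukin-18 binding protein Il18bp, and the receptor genes Il1r1, Il1r2 and Il1rap. Each of the 9 genes was measured by 1 probe set, out of 22206 tested on every array. All 9 were tested, with no filter on low values.

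Expression was measured on 22 Clariom S arrays, and the deposited values are on a log2 scale, on which a difference of 1 unit stands for a 2-fold change. Marrow cells of C57/bl6 mice had been grown into macrophages with medium conditioned by L929 cells in all groups. The groups were HMB+LPS (1 mM HMB and 10 ng/ml LPS, 5 arrays), LPS (10 ng/ml LPS, 5 arrays), HMB (1 mM HMB, 6 arrays) and Ctrl (neither agent, 6 arrays). LPS, lipopolysaccharide, is a component of the bacterial cell wall that drives M1-like polarization, and was given for 48 h. HMB, β-hydroxy-β-methylbutyrate, is a metabolite of the amino acid leucine. The labels call the cells of HMB and Ctrl macrophages, and do not say whether arrays of a group came from separate mice or cultures, so that p-values measure the spread between these arrays, which may be technical. The study asked whether HMB alters the M1-like polarization of these cells, and the comparisons were LPS against Ctrl, HMB+LPS against HMB, HMB against Ctrl, and HMB+LPS against LPS.

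Interleukin-1 alpha and beta bind the same receptor, Il1r1, which then recruits the accessory chain Il1rap and signals through MyD88 to NF-kB. The receptor antagonist Il1rn occupies Il1r1 without recruiting the accessory chain, and Il1r2 is a decoy that binds the cytokines without signalling. Interleukin-18 has its own receptor and a soluble inhibitor, Il18bp, and interleukin-36 gamma signals through Il1rl2 together with Il1rap. In macrophages Il1b is known as a gene that is nearly silent at rest and strongly transcribed after LPS, whereas Il18 is made at rest.

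The sequences before the starts of Il1a, Il1rn and Il1rl2 are shown because these genes of the family were called higher in both LPS comparisons over all arrays, and that of Il1b because it neighbours Il1a and varied most among arrays with LPS. Each run covers the 250 bases before the first start that the RefSeq table lists for the gene, on GRCm38.p6, 5′ to 3′ on the gene's own strand. Capitals mark matches to 4 patterns searched on both strands, and no match shown overlaps another. The TATA box was searched as TATAAA, the AP-1 site as TGANTCA, the C/EBP site as TTGCNNAA, and the NF-kB site as GGG and CC with 5 bases of any kind between them. Il1a lies on the minus strand at chr2:129309973-129310222, Il1b on the minus strand at chr2:129371140-129371389, Il1rn on the plus strand at chr2:24336610-24336859, and Il1rl2 on the plus strand at chr1:40324339-40324588.
Il1a: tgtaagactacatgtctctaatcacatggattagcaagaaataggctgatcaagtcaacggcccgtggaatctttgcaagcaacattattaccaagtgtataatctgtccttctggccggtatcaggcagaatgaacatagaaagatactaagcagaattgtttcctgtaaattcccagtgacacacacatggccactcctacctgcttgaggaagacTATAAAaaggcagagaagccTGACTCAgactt
Il1b: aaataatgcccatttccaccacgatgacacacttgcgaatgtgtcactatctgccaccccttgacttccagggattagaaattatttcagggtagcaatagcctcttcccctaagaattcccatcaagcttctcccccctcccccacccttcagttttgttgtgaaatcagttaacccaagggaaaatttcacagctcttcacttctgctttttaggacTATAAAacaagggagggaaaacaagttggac
Il1rn: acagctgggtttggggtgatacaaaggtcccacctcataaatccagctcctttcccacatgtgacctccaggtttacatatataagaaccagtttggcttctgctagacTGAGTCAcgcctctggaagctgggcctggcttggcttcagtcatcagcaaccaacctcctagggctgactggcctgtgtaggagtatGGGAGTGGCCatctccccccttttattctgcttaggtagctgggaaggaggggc
Il1rl2: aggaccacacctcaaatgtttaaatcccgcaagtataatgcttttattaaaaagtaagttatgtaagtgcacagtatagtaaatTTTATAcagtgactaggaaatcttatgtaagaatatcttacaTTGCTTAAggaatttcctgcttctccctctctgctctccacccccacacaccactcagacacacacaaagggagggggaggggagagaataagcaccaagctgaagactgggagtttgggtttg
In Il1a the TATA match began 32 bases before the start, and an AP-1 match began 12 bases before it. In Il1b the TATA match began 31 bases before the start, so the neighbouring genes Il1a and Il1b both held this match at nearly the same distance. Il1rn has 3 annotated starts, which the array cannot tell apart. The window of the first, shown here, held an AP-1 match that began 141 bases before the start and an NF-kB match that began 54 bases before it, that of the second held none of the 4 patterns, and that of the third held an NF-kB match that began 51 bases before it. In Il1rl2 a C/EBP match began 124 bases before the start, and the TATA letters lay on the opposite strand. Over all 32851 promoter windows of this length, 12.4% held the TATA pattern, 6.75% the AP-1 pattern, 45.8% the NF-kB pattern and 9.56% the C/EBP pattern. No match to any of the 4 patterns was found in the windows of Il1f9, the gene of interleukin-36 gamma, and of Il1r2. That of Il1rap, called in neither LPS comparison over all arrays, held 6 NF-kB matches, some of them overlapping. Whether the patterns go with the LPS differences was not tested.

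In 8 of the 22 arrays many genes outside this family stood apart from the remaining 14. They were HMB+LPS 5, HMB+LPS 6, LPS 3, LPS 6, HMB 5, HMB 6, Ctrl 5 and Ctrl 6, placed at 0.769 or more along the difference between numbers 5 and 6 and numbers 1 to 4 of the arrays without LPS (3238 probe sets, none of them a gene described here), where the other 14 arrays reached at most 0.302. These probe sets were chosen for that same difference on the arrays without LPS. The places of the arrays without LPS were therefore set by the choice, and those of the arrays with LPS were not. The 8 arrays are not groups of the study. Among arrays with LPS they also had the lowest Il1a, Il1b, Il1rn and Il1r1 of their groups. A difference without them therefore describes the remaining arrays only. On 6 of the 14 others (HMB+LPS 2, HMB+LPS 3, LPS 2, LPS 5, HMB 1 and Ctrl 1) positive control probe sets stood less than 4 log2 units above negative ones, where the range over all arrays was 3.65 to 5.26. The 8 matched macrophage markers of 10 listed averaged 15.36 to 16.49 log2 units in HMB+LPS, 15.51 to 16.37 in LPS, 15.20 to 16.28 in HMB and 15.58 to 16.31 in Ctrl. Of these, Itgam was called higher in HMB+LPS than in HMB over all arrays (1.25 ± 0.25, SE, adjusted p = 0.00534). Without the 8 arrays Mertk and C1qa were called lower in both LPS comparisons, where 5.82% and 6.33% of all probe sets were called lower. The differences of C1qa were −2.96 and −2.95. On the 8 arrays alone 0 of the 8 markers were called lower in either LPS comparison. There 4 were called higher in HMB+LPS against HMB, where 2.89% of all probe sets were, and 1 in LPS against Ctrl, where 0.509% were.

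Of 11 matched neutrophil and granulocyte precursor markers, Mmp8 and S100a8 were called higher in both LPS comparisons, where 1.99% of all probe sets were called higher in HMB+LPS against HMB and 1.08% in LPS against Ctrl, and the median difference of the list was 0.13 and 0.33. The summed level of the list was 14.50 to 17.32 in HMB+LPS, 10.43 to 17.16 in LPS, 7.62 to 10.01 in HMB and 7.23 to 8.89 in Ctrl, and Mmp8 alone was 14.45 to 17.32 in HMB+LPS, 10.19 to 17.14 in LPS, 5.36 to 9.80 in HMB and 4.73 to 8.35 in Ctrl. S100a9 was not called, and Mpo was under the lower quartile on 19 of 22 arrays, Elane on 14, Prtn3 on 15 and Ngp on 22. Of 8 matched fibroblast and stromal markers 0 were called in these comparisons over all arrays. When the 8 arrays were left out, Dcn and Lum were called higher and Col1a1, Col1a2, Col3a1 and Acta2 lower in both. The median of the list was then −1.37 in HMB+LPS against HMB and −1.31 in LPS against Ctrl. Of all probe sets in that fit, 4.46% were called higher and 5.82% lower in HMB+LPS against HMB. The shares in LPS against Ctrl were 4.22% and 6.33%. Dcn was at 11.91 to 12.78 on the 6 arrays with LPS that did not stand apart, and at most 5.0 on all others. Of 7 matched lymphocyte markers Klrb1c was called lower in HMB+LPS than in HMB (−1.52 ± 0.37, SE, adjusted p = 0.0206), where 1.54% of all probe sets were called lower, and of 7 dendritic and 9 mast cell and basophil markers 0 were called. The part of these cells in the results was not tested, and in bulk samples fewer cells of a type and less RNA per cell cannot be told apart.

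Il1a, the gene of interleukin-1 alpha, had the largest difference with LPS among the 9 genes, and was near the floor of the arrays without LPS. It stood at 15.76, 15.69, 16.41, 8.30 and 8.73 log2 units in HMB+LPS (replicates 2 to 6). In LPS it stood at 15.68, 6.32, 16.16, 15.72 and 7.45 (replicates 2 to 6). In HMB it ran from 2.36 over a median of 3.59 to 5.72, and in Ctrl from 3.0 over a median of 3.63 to 4.0. Every array with LPS was above every array without it, and the arrays with LPS fell into a high set of 6 and a low set of 4. In 3 of 6 HMB and 3 of 6 Ctrl arrays the value was under the lower quartile of the array, which serves here as its floor. The LPS minus Ctrl difference was 8.75 ± 1.69 log2 units (SE, adjusted p = 0.00787), and the HMB+LPS minus HMB difference was 9.32 ± 1.69 (adjusted p = 0.00228). Without the 8 arrays that stand apart the differences were 12.27 ± 0.55 and 12.06 ± 0.55, and on those 8 arrays alone they were 3.49 ± 0.48 and 5.34 ± 0.48, all 4 past the threshold. Without the 6 arrays of low control separation, which left LPS 4 beside LPS 3 and LPS 6, LPS minus Ctrl was 6.47 and was not called (adjusted p = 0.263).

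Il1b, the gene of interleukin-1 beta, was spread most widely with LPS, and its differences with LPS did not pass the threshold over all arrays. It stood at 16.40, 16.55, 17.47, 8.80 and 8.84 log2 units in HMB+LPS, and at 5.99 and 6.05 in LPS 3 and LPS 6 beside 16.34, 17.39 and 16.50 in the other LPS arrays. In HMB it ran from 4.29 over a median of 7.38 to 8.86, and in Ctrl from 4.35 over a median of 7.29 to 8.91. LPS 3 and LPS 6 therefore lay within the range of Ctrl, and HMB+LPS 5 and HMB+LPS 6 within that of HMB, so the groups overlapped in both comparisons. The LPS minus Ctrl difference was 5.62 ± 2.05 (SE, adjusted p = 0.182), and the HMB+LPS minus HMB difference was 6.51 ± 2.05 (adjusted p = 0.0836). When each of the 22 arrays was left out in turn, LPS minus Ctrl passed in 2 fits, with 7.23 (adjusted p = 0.0451) without LPS 3. HMB+LPS minus HMB also passed in 2 fits, with 7.72 (adjusted p = 0.0384) without HMB+LPS 5. Without the 8 arrays the differences were 8.85 ± 0.64 (adjusted p = 2.93e-07) and 8.70 ± 0.64 (adjusted p = 3.68e-07). On the 8 arrays alone, HMB+LPS minus HMB was 3.73 ± 0.51 (adjusted p = 0.0111) and LPS minus Ctrl was 1.30 ± 0.51 (adjusted p = 0.444).

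Of the LPS comparisons over all arrays, Il1f9 was called higher in HMB+LPS against HMB only. Its differences in both LPS comparisons were not called different from each other. Its values with LPS did not fall into a high and a low set. It stood at 6.82, 6.31, 7.45, 7.34 and 7.51 log2 units in HMB+LPS, and in HMB it ran from 3.59 over a median of 4.36 to 5.72. In LPS it stood at 6.24, 6.90, 7.23, 6.42 and 7.57, and in Ctrl it ran from 3.83 over a median of 4.97 to 6.83. HMB+LPS and HMB did not overlap, whereas Ctrl 5 and Ctrl 6 (6.44 and 6.83) lay within the range of LPS. The HMB+LPS minus HMB difference was 2.67 ± 0.49 (SE, adjusted p = 0.00229), and the LPS minus Ctrl difference was 1.71 ± 0.49 (adjusted p = 0.0734). Without the 8 arrays both passed, at 2.36 ± 0.50 (adjusted p = 0.00614) and 2.21 ± 0.50 (adjusted p = 0.00881). On the 8 arrays alone they were 3.18 ± 0.30 (adjusted p = 0.00296) and 0.60 ± 0.30 (adjusted p = 0.569).

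Il18, the ligand gene known to be made at rest, did not differ detectably with LPS. It ran from 9.39 to 10.83 log2 units in HMB+LPS, from 10.07 to 11.12 in LPS, from 8.98 to 11.07 in HMB and from 9.56 to 11.27 in Ctrl, so all 4 groups overlapped. The LPS minus Ctrl difference was −0.19 with a 95% interval of −1.0 to 0.62, and the HMB+LPS minus HMB difference was −0.07 with an interval of −0.87 to 0.74. The 2 lowest HMB arrays and the 2 lowest Ctrl arrays were replicates 5 and 6 in each case.

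**Figure D1:**
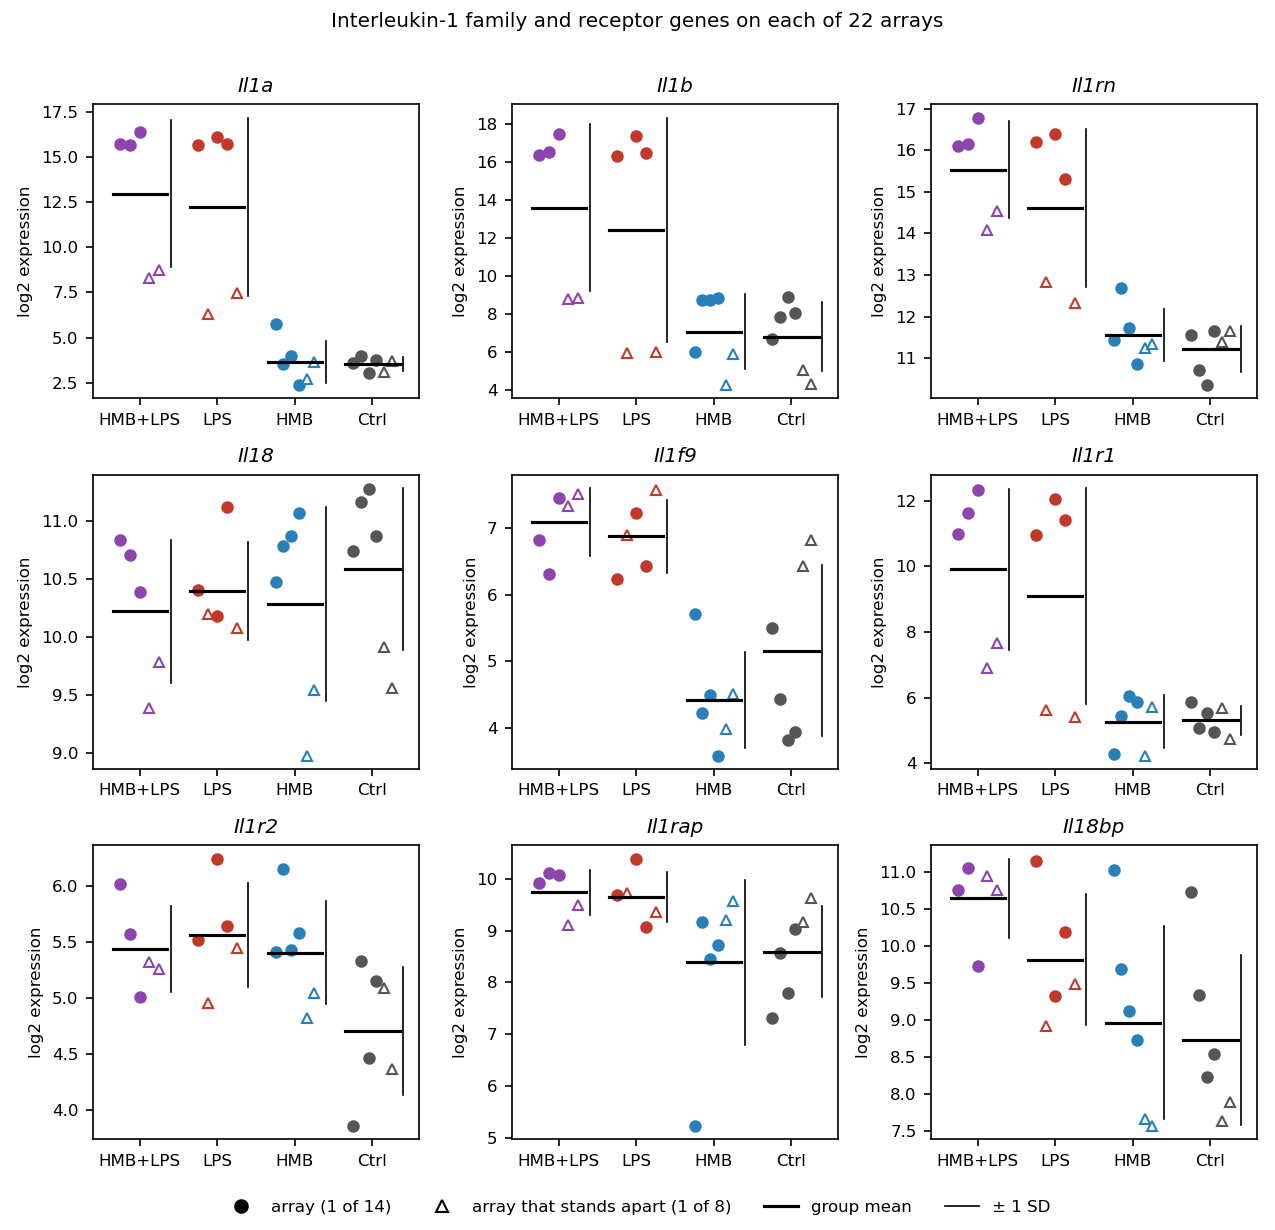
Log2 expression of the 9 genes on each array (y axes, each with its own range) by group (x axis), with a bar for the group mean and a line for ± 1 SD. Filled points are the 14 arrays near numbers 1 to 4 and open triangles the 8 that stand apart, which for Il1a, Il1b, Il1rn and Il1r1 are the lowest arrays of HMB+LPS and of LPS.

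Il1rn, the antagonist gene, was expressed in macrophages without LPS and rose with LPS, most in the 6 arrays in which Il1a was high. It stood at 16.11, 16.16, 16.78, 14.08 and 14.54 log2 units in HMB+LPS, and in HMB it ran from 10.85 over a median of 11.39 to 12.70. In LPS it stood at 16.19, 12.84, 16.38, 15.30 and 12.32, and in Ctrl it ran from 10.36 over a median of 11.48 to 11.65. HMB+LPS did not overlap HMB, and LPS did not overlap Ctrl, but LPS 6 (12.32) lay below the highest HMB array (12.70). In HMB+LPS minus HMB it differed by 3.98 ± 0.64 (SE, adjusted p = 0.000631), and the LPS minus Ctrl difference was 3.38 ± 0.64 (adjusted p = 0.00666). On the 8 arrays alone HMB+LPS minus HMB was 3.01 ± 0.25 (adjusted p = 0.00204) and LPS minus Ctrl was 1.05 ± 0.25 (adjusted p = 0.199). Without the 6 arrays of low control separation, LPS minus Ctrl was 2.69 for Il1rn and was not called (adjusted p = 0.266).

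Il18bp, the inhibitor of interleukin-18, was not called over all arrays in either LPS comparison. It stood at 10.75, 11.05, 9.72, 10.95 and 10.76 log2 units in HMB+LPS and at 11.16, 8.92, 9.33, 10.19 and 9.49 in LPS. In HMB it ran from 7.57 over a median of 8.93 to 11.03, and in Ctrl from 7.64 over a median of 8.38 to 10.74. HMB 1 and Ctrl 1, both of low control separation, were the highest arrays of their groups and overlapped those with LPS. The mean of Il18bp was 9.82 in LPS and 8.73 in Ctrl. With each array left out in turn, LPS minus Ctrl ran from 0.75 to 1.49 for Il18bp and was called in 0 fits. In HMB+LPS minus HMB it differed by 1.68 ± 0.58 (SE, adjusted p = 0.12), and 2.09 without HMB 1, which passed (adjusted p = 0.0325). On the 8 arrays alone it was 3.24 ± 0.24 (adjusted p = 0.00123), against 0.87 ± 0.64 without them (adjusted p = 0.51). In this comparison Il18bp was the 1 gene of the 9 called on the 8 arrays and not on the other 14, and the difference between both sets was not tested.

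Of the receptor genes, Il1r1 was called higher over all arrays in HMB+LPS against HMB only, and Il1r2 and Il1rap in neither LPS comparison. The differences of Il1r1 in both LPS comparisons were not called different from each other. Il1r1, the signalling receptor, stood at 11.00, 11.63, 12.33, 6.91 and 7.67 log2 units in HMB+LPS, and ran from 4.23 over a median of 5.58 to 6.04 in HMB. In LPS it stood at 10.94, 5.61, 12.06, 11.43 and 5.41, and in Ctrl it ran from 4.75 over a median of 5.29 to 5.87. LPS 3 and LPS 6 lay within Ctrl, whereas HMB+LPS and HMB did not overlap. The HMB+LPS minus HMB difference was 4.65 ± 1.10 (SE, adjusted p = 0.0178), which did not pass without HMB+LPS 2, 3 or 4 in turn, and the LPS minus Ctrl difference was 3.79 ± 1.10 (adjusted p = 0.0803). Without the 8 arrays both passed, at 6.24 ± 0.44 and 6.13 ± 0.44. Neither passed on the 8 arrays alone, at 2.32 ± 0.55 (adjusted p = 0.0642) and 0.30 ± 0.55 (adjusted p = 0.91).

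Il1rap, the accessory chain shared by the receptors for interleukin-1 and interleukin-36, ran from 9.10 to 10.11 log2 units in HMB+LPS and from 9.07 to 10.38 in LPS. It was 5.24 in HMB 1 and 7.32 in Ctrl 1, and otherwise ran from 8.45 to 9.56 in HMB and from 7.80 to 9.62 in Ctrl. It differed in HMB+LPS minus HMB by 1.35 ± 0.57 (SE, adjusted p = 0.228), and 0.72 without HMB 1. The mean of Il1rap was 9.65 in LPS and 8.59 in Ctrl. With each array left out in turn, LPS minus Ctrl ran from 0.80 to 1.26 for Il1rap and was called in 0 fits. The decoy Il1r2 was low in all groups, between 5.01 and 6.02 in HMB+LPS, 4.96 and 6.24 in LPS, 4.82 and 6.16 in HMB, and 3.86 and 5.33 in Ctrl. Its LPS minus Ctrl difference was 0.85 ± 0.29 (adjusted p = 0.149), and its HMB+LPS minus HMB difference was 0.03 ± 0.29 (adjusted p = 0.983).

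Over all 22 arrays 4 of the 9 genes were called higher in HMB+LPS than in HMB (Il1a, Il1rn, Il1f9 and Il1r1), against 3.54% of all probe sets called in either direction and 1.99% called higher. In LPS against Ctrl 2 of the 9 were called higher (Il1a and Il1rn), against 1.86% of all probe sets called and 1.08% called higher. The genes whose groups did not overlap were the same as those called, 4 of 9 and 2 of 9, where 2.18% and 1.26% of all probe sets were higher without overlap. The median difference of the 9 genes was 2.67 in HMB+LPS against HMB and 1.71 in LPS against Ctrl, and the median over all tested probe sets was −0.01 and 0.00. Of the 9 genes 0 were called lower in these comparisons. Without the 8 arrays 5 of 9 were called in each comparison (Il1a, Il1b, Il1rn, Il1f9 and Il1r1), all of them higher, where 4.46% of all probe sets were called higher in HMB+LPS against HMB and 4.22% in LPS against Ctrl. On the 8 arrays alone 5 of 9 were called in HMB+LPS against HMB (Il1a, Il1b, Il1rn, Il1f9 and Il18bp), all of them higher, where 2.89% of all probe sets were called higher. In LPS against Ctrl on these arrays 1 of 9 was called higher (Il1a), where 0.509% of all probe sets were called higher.

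**Figure D2:**
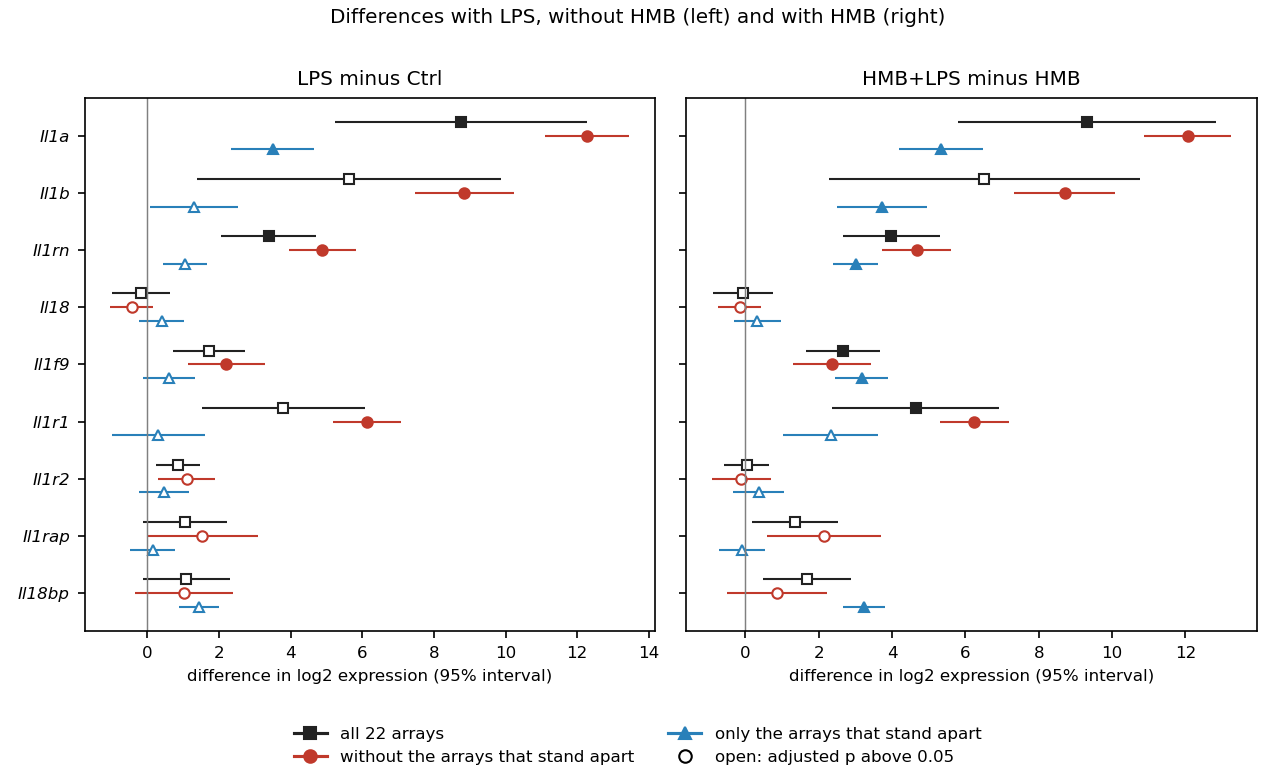
Differences in log2 expression (x axes, with 95% intervals) for LPS minus Ctrl and HMB+LPS minus HMB, by gene. Squares use all 22 arrays, circles the 14 others and triangles the 8 that stand apart, and open symbols have an adjusted p above 0.05. Il1a moved most, at 8.75 and 9.32 over all arrays, and the intervals of Il18 span 0 throughout.

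HMB changed none of the 9 genes detectably over all arrays, with LPS or without it. In HMB+LPS against LPS 0 of 9 genes and 0% of all probe sets were called by limma, and at an unadjusted p up to 0.05 there were 0 of the 9 genes and 3.09% of all probe sets. In HMB against Ctrl 0 of 9 and 0% were called, and at an unadjusted p up to 0.05 there were 1 of 9 (Il1r2) and 1.85% of all probe sets. The methods' t-test gave the same numbers of these 9 genes at that level, 0 with LPS and 1 without it. Of all 22206 probe sets, that t-test reached this level for 652 with LPS and 587 without it. The intervals were wide for the genes whose arrays with LPS fell into a high and a low set. The HMB+LPS minus LPS difference was 0.71 (95% interval −2.96 to 4.38) for Il1a and 1.16 (−3.27 to 5.59) for Il1b. They were narrower without the 8 arrays, at 0.10 (−1.17 to 1.36) for Il1a and 0.06 (−1.41 to 1.53) for Il1b.

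The value of Il1r2, the decoy receptor, was higher in HMB than in Ctrl by 0.70 ± 0.28 log2 units (SE, unadjusted p = 0.0202, adjusted p = 1). It stood at 5.41, 6.16, 5.43, 5.58, 4.82 and 5.04 in HMB 1 to 6 and at 3.86, 5.33, 4.46, 5.15, 5.09 and 4.36 in Ctrl 1 to 6. The groups overlapped over all arrays and did not overlap without numbers 5 and 6, where the difference was 0.94 ± 0.35 (unadjusted p = 0.0155, adjusted p = 1) and 0.761% of all probe sets were higher without overlap. In HMB+LPS against LPS the difference of Il1r2 was −0.12 ± 0.31 (adjusted p = 1).

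On the 8 arrays that stand apart, with 2 arrays per group, 3 of 9 genes were called higher in HMB+LPS than in LPS, where 2.2% of all probe sets were called higher. Il1b was 8.80 and 8.84 in HMB+LPS 5 and 6, against 5.99 and 6.05 in LPS 3 and 6 (2.80 ± 0.51, SE, adjusted p = 0.0376). Il1rn was 14.08 and 14.54 in HMB+LPS 5 and 6, against 12.84 and 12.32 in LPS 3 and 6 (1.73 ± 0.25, adjusted p = 0.0239). Il18bp was 10.95 and 10.76 in HMB+LPS 5 and 6, against 8.92 and 9.49 in LPS 3 and 6 (1.65 ± 0.24, adjusted p = 0.0227). Markers of other cells were also called higher there, 2 of 11 neutrophil markers (Mmp8 and S100a8, median of the list 0.22) and 2 of 8 fibroblast markers (Col1a2 and Acta2, median 1.14). Mmp8 was 14.45 and 14.82 in HMB+LPS 5 and 6, against 10.19 and 10.59 in LPS 3 and 6, and their part in the result was not tested. The numbers of the LPS arrays differed from those of the HMB+LPS arrays. On the other 14 arrays the differences were 0.06, 0.39 and 0.28 for Il1b, Il1rn and Il18bp, and 0 of 9 genes and 0% of all probe sets were called, with 0 of 9 at an unadjusted p up to 0.05 and 3.67% of all probe sets at that level.

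Without LPS, Il1f9 was called lower in HMB than in Ctrl on these arrays, at 3.99 and 4.51 in HMB 5 and 6 against 6.44 and 6.83 in Ctrl 5 and 6. The difference was −2.38 ± 0.30 (SE, adjusted p = 0.0439), and 0.261% of all probe sets were called lower. On the other 14 arrays it was 0.08 ± 0.46 (adjusted p = 1). The difference between both HMB effects, with and without LPS, was called for 0 of the 9 genes over all arrays, without the 8 and on the 8 alone, where 0%, 0% and 0.0045% of all probe sets were called. At an unadjusted p up to 0.05 it reached 0, 1 and 6 of the 9 genes in these 3 fits, where 2.09%, 2.64% and 10.1% of all probe sets did.

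**Figure D3:**
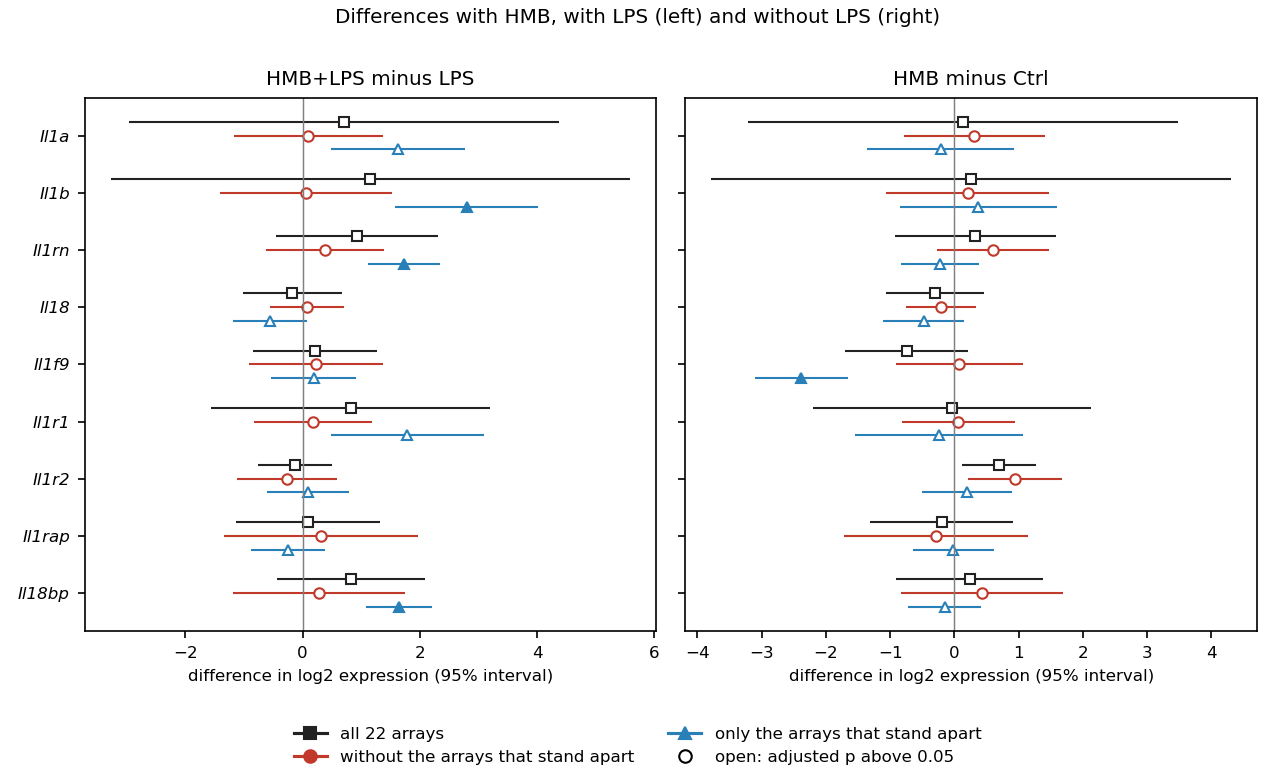
Differences in log2 expression with HMB (x axes, with 95% intervals), among arrays with LPS (HMB+LPS minus LPS) and without it (HMB minus Ctrl), with symbols for all 22 arrays, the 14 others and the 8 that stand apart. Filled symbols, with an adjusted p up to 0.05, appear only for the 8 arrays: Il1b, Il1rn and Il18bp with LPS, and Il1f9 without it.

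Among the arrays without LPS several genes of the family went with the replicate number in both groups. Il1b stood at 6.02, 8.78, 8.75, 8.86, 4.29 and 5.90 log2 units in HMB 1 to 6, and at 6.73, 7.85, 8.91, 8.09, 5.10 and 4.35 in Ctrl 1 to 6. Il18 stood at 10.47, 10.78, 10.87, 11.07, 8.98 and 9.54 in HMB 1 to 6, and at 10.74, 11.16, 11.27, 10.87, 9.91 and 9.56 in Ctrl 1 to 6. Numbers 5 and 6 were the lowest of their group for both ligand genes, and for Il1b number 1 came next. Il18bp stood at 7.66 and 7.57 in HMB 5 and 6 and at 7.64 and 7.89 in Ctrl 5 and 6, below numbers 1 to 4 of both groups, where it ran from 8.23 to 11.03. Il1rap went the other way, with 9.20 and 9.56 in HMB 5 and 6 and 9.17 and 9.62 in Ctrl 5 and 6, above numbers 1 to 4 of their own group, which reached at most 9.17 in HMB and 9.04 in Ctrl. The difference between the numbers was not tested.

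**Figure D4:**
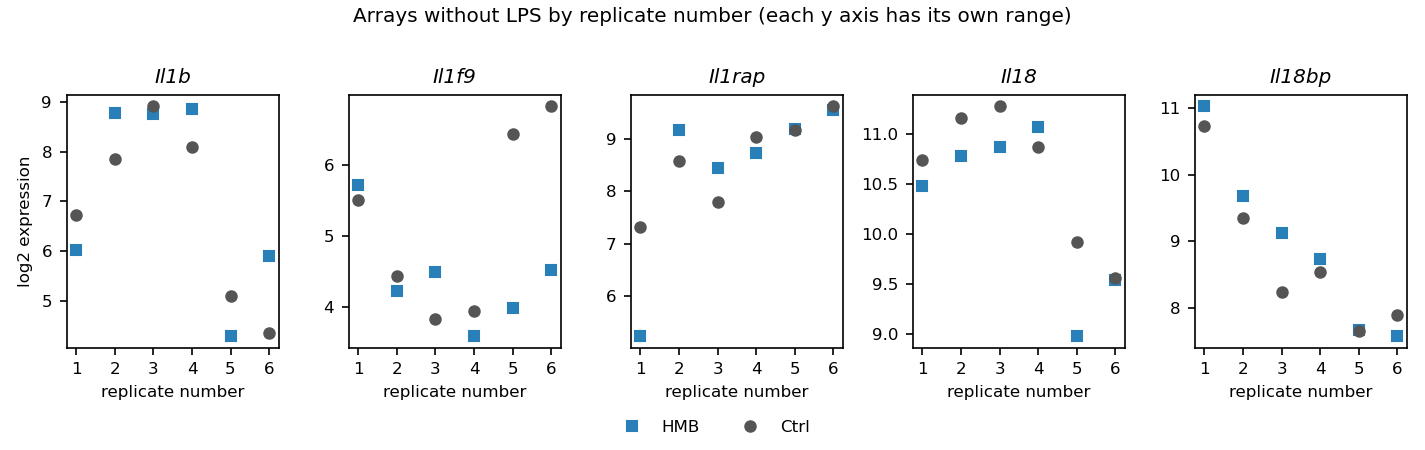
Log2 expression of 5 genes (y axes, each with its own range) in HMB and Ctrl arrays by replicate number (x axis). Numbers 5 and 6 are low for Il1b, Il18 and Il18bp in both groups, and Il1f9 is high in Ctrl 5 and Ctrl 6 and not in HMB 5 and HMB 6.

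Several of the genes are neighbours on the RefSeq annotation, and the array gave unequal differences along these runs. On chromosome 1 the order was Il1r2, Il1r1, Il1rl2, Il1rl1, Il18r1 and Il18rap. Il1rl2, the receptor of interleukin-36, stood at 9.60, 9.81, 11.07, 9.57 and 9.26 log2 units in HMB+LPS, and ran from 4.79 over a median of 5.57 to 6.18 in HMB. In LPS it stood at 8.98, 8.33, 10.91, 9.86 and 8.39, and in Ctrl it ran from 4.73 over a median of 5.18 to 6.91. No array with LPS overlapped those without it. The HMB+LPS minus HMB difference was 4.30 ± 0.48 (SE, adjusted p = 1.25e-05), and the LPS minus Ctrl difference was 3.70 ± 0.48 (adjusted p = 0.00014). It was called higher in both LPS comparisons also without the 8 arrays (4.89 and 4.92) and on the 8 alone (3.26 and 1.56). Of its neighbours over all arrays, Il1r1 was called in HMB+LPS against HMB only, Il1r2 in neither comparison, and the values of Il18r1 ran from 3.31 to 4.87 over all arrays. On chromosome 2 the order was Il1f9, Il1f6, Il1f5, Il1f10 and Il1rn, and at a separate place Il1a lay next to Il1b. Il1f6 (Il36a) ran from 3.68 to 5.67 and Il1f10 from 2.60 to 4.25 over all arrays, and neither was called in any comparison over all arrays. Some of these genes overlap another annotated gene by their whole spans. These are Il1b with Il1bos, Il1a with Gm14023, Il18 with Bco2 and Tex12, Il1r2 with Gm16894, Il1rap with Gm20319 and Il1rl2 with Gm17970. Whether their probe sets lie in the overlaps, and whether their values are affected, was not examined.

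**Figure D5:**
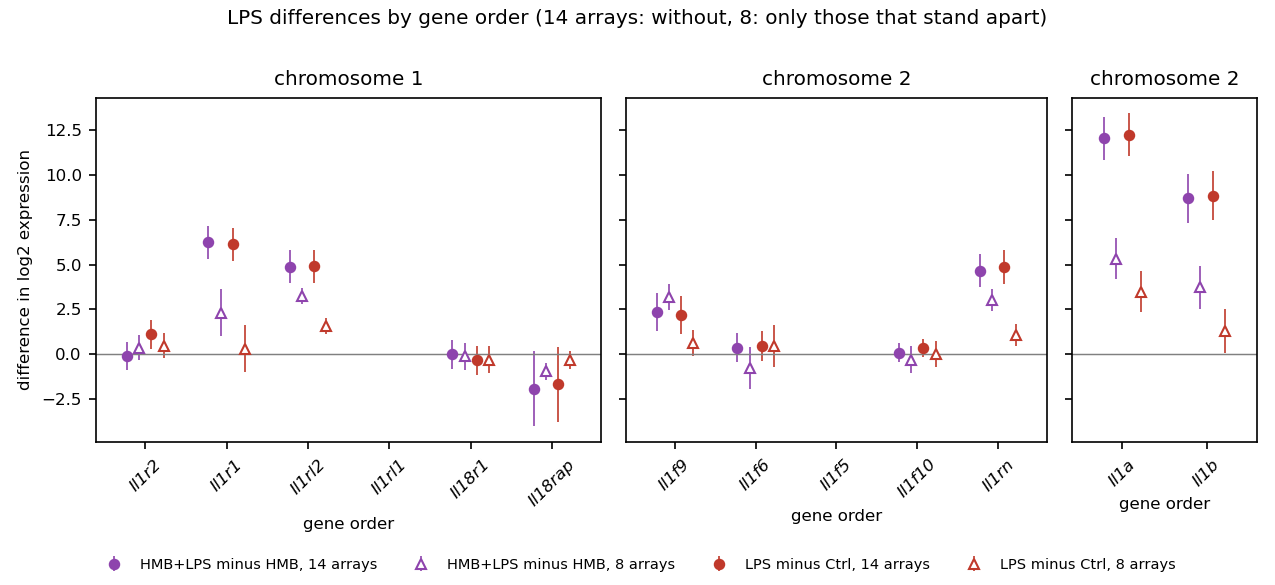
Differences in log2 expression with LPS (y axis, with 95% intervals) for genes in their order along chromosome 1 and at a pair of places on chromosome 2, for the 14 arrays and the 8 that stand apart. Il1rl1 and Il1f5 are drawn without a value. On the 14 arrays Il1r1 and Il1rl2 lie above Il1r2 and Il18r1, and Il1f9 and Il1rn above Il1f6 and Il1f10 in both comparisons. Among the 8 arrays Il1r1 is 0.30 and Il1f9 0.60 in LPS minus Ctrl, and Il1f6 is −0.79 in HMB+LPS minus HMB.

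In 4 further lists of the pathway few genes were called over all arrays. Of 15 matched genes of interleukin-1 receptor signalling, of 19 listed, 2 were higher and 1 lower in HMB+LPS than in HMB, where 1.99% of all probe sets were called higher and 1.54% lower, and 2 were higher in LPS than in Ctrl, where 1.08% were. Nfkbia, the inhibitor of NF-kB that NF-kB itself induces, stood at 15.30, 15.22, 15.88, 13.57 and 13.63 log2 units in HMB+LPS against at most 12.69 in HMB, and at 15.27, 12.53, 15.80, 15.18 and 12.42 in LPS against at most 12.06 in Ctrl. Its differences were 2.87 ± 0.56 (SE, adjusted p = 0.00438) and 2.63 ± 0.56 (adjusted p = 0.0163). Irak3, an inhibitory member of the receptor-associated kinases, differed by 2.32 ± 0.50 (adjusted p = 0.00916) and 2.0 ± 0.50 (adjusted p = 0.04), and Tab1, an adaptor of the kinase TAK1, by −1.04 ± 0.24 in HMB+LPS against HMB (adjusted p = 0.0137). The median difference of this list was 0.27 in both comparisons. Without the 8 arrays Irak2 and Nfkbiz were also called higher in both, and 4 of the 15 genes were called higher in each. In that fit 4.46% of all probe sets were called higher in HMB+LPS against HMB and 4.22% in LPS against Ctrl. In HMB+LPS against HMB 1 of the 15 was called lower there, where 5.82% of all probe sets were.

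Of 15 genes of interleukin-1 processing and release, all matched, 2 were higher and 1 lower in HMB+LPS than in HMB, and 1 was higher in LPS than in Ctrl, against the same shares of all probe sets (1.99% and 1.54%, and 1.08%). Casp4, the caspase that senses LPS inside the cell, differed by 1.95 ± 0.39 (SE, adjusted p = 0.00541) in HMB+LPS against HMB and by 2.01 ± 0.39 (adjusted p = 0.00804) in LPS against Ctrl. Casp1, which cuts the precursors of interleukin-1 beta and interleukin-18, stood at 14.21 to 14.72 in HMB+LPS against 13.14 to 13.99 in HMB, with no overlap. It differed by 0.99 ± 0.24 (adjusted p = 0.0223), and by 0.82 ± 0.24 in LPS against Ctrl (adjusted p = 0.0883). The calpain subunit Capn2 differed by −1.30 ± 0.36 in HMB+LPS against HMB (adjusted p = 0.0437). Nlrp3, the sensor of the inflammasome, ran from 9.89 to 12.23 in HMB+LPS, 9.86 to 12.12 in LPS, 9.31 to 11.69 in HMB and 10.35 to 11.76 in Ctrl, and was not called.

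Of 6 matched receptors of the family outside the 9 genes, of 7 listed, 1 was called higher in each LPS comparison, Il1rl2, against 1.99% of all probe sets in HMB+LPS against HMB and 1.08% in LPS against Ctrl. Il18rap, the accessory chain of the interleukin-18 receptor, was −1.51 ± 0.71 in HMB+LPS against HMB (SE, adjusted p = 0.304) and −1.19 ± 0.71 in LPS against Ctrl (adjusted p = 0.474). Of 4 matched ligands outside the 9 genes, of 5 listed, 0 were called in either LPS comparison. The alarmin Il33 differed by 0.22 ± 0.37 in HMB+LPS against HMB (SE, adjusted p = 0.863) and by 0.66 ± 0.37 in LPS against Ctrl (adjusted p = 0.446), and Il36b by 0.19 ± 0.23 (adjusted p = 0.802) and −0.32 ± 0.23 (adjusted p = 0.582). With HMB no gene of these 4 lists was called over all arrays. The smallest unadjusted p among them was that of Ikbkg, a subunit of the kinase complex that frees NF-kB, at −0.52 ± 0.25 in HMB against Ctrl (unadjusted p = 0.0466, adjusted p = 1).

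Across the 22 arrays the genes outside the family whose values followed Il1a most closely were Inhba (Pearson r = 0.983), Nos2 (r = 0.982) and Hif1a (r = 0.982). For Il1b they were Traf1 (r = 0.981), Lox (r = 0.976) and Plod2 (r = 0.971), and for Il1rn St3gal1 (r = 0.976), Alas1 (r = 0.967) and Clec4e (r = 0.967). Within the family Il1a and Il1b had r = 0.918. These are descriptions over n = 22 arrays that share the split by LPS and by the 8 arrays, and carry no test.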

How the data were processed

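RNA of 22 samples was hybridised to Clariom S arrays. The authors deposited 1 table of log2 values, 1 column per array, from 0.97 to 19.44. How the authors corrected the background, normalized the arrays and with which software is not given in the sources used here. Arrays give no read depth, so their number limits the precision. The table held 28846 probe sets. The 6640 controls were left out, and 22206 were tested as deposited, of which the platform annotation gave 1 gene symbol to 19572 and none to 2634. Columns of unknown samples numbered 0.

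Differences came from the two-sided test of limma (version 3.58.1, R version 4.3.3; functions lmFit, contrasts.fit and eBayes), with 4 group means in 1 fit of all 22 arrays, no block, and Benjamini-Hochberg adjustment over the 22206 probe sets at a threshold of 0.05. Intervals are 95% intervals of that fit. The scripts were tested on simulated data with less spread than these arrays and no split within groups, which does not measure error rates here. The 9 genes and the 10 further lists (101 genes, 90 matched) were chosen with earlier results of these data known. All 9 genes are named. Of each other list at most 4 called genes per comparison are named, smallest adjusted p first, or, where none was called, at most 2 genes of lowest p as values. By Pearson correlation, the 3 most similar genes are named for each gene called in LPS against Ctrl and for Il1b. Genes named beyond these, such as Nlrp3, Irak2, Nfkbiz, S100a9, Mpo and Dcn, were chosen after their values were seen. The floor of an array is its lower quartile, from 3.56 to 3.94.

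The labels give replicate numbers. Deviations of HMB and Ctrl arrays of the same number correlated over all probe sets (r = 0.627, 0.183, 0.244, 0.307, 0.608 and 0.623), each above 0.1, and the numbers were taken to pair these groups. The highest r with another number was 0.264 for number 3, above its own, and 0.605 and 0.623 for numbers 5 and 6, close to their own. A block for the number changed no call there. HMB+LPS and LPS arrays of the same number had r = 0.615, −0.515, 0.545, −0.516 and 0.599 for numbers 2 to 6. The highest r with another number was 0.391, 0.677 and 0.648 for numbers 3, 5 and 6, above their own. The numbers were therefore not shown to pair HMB+LPS and LPS. Alternatives were another normalization, centring, the replicate block, fewer samples, the methods' t-test, a filter on dim probe sets, array weights, leaving out each array, and leaving out or blocking the arrays that stand apart. Promoter windows came from RefSeq, matched by symbol for all 9 genes.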

Additional observations from a re-analysis of the deposited data

Results flagged for a closer look

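In groups of 5 or 6 arrays, the gap between the lowest or highest array and its nearest neighbour was set against the range of the group, for the 9 genes in 4 groups (36 tests). Chance passes about 1 in 20 such groups, and 2 of 36 passed. Il1rap in HMB had a ratio of 0.742, since HMB 1 stood at 5.24 and the next lowest array at 8.45. HMB 1 is among the 6 arrays of low control separation, and Ctrl 1, of the same kind, was the lowest array of Ctrl at 7.32. Il18bp in HMB+LPS had a ratio of 0.776, since HMB+LPS 4 stood at 9.72 and the next lowest array at 10.75. HMB+LPS 4 is neither an array of low control separation nor one that stands apart.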

How the results depend on the processing

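Over all 22 arrays 4 of the 9 genes were called in HMB+LPS minus HMB, 2 in LPS minus Ctrl, and 0 in HMB+LPS minus LPS, in HMB minus Ctrl and in the contrast between both HMB effects. For HMB+LPS minus HMB the number was 3 to 6 under every setting run, and 6 with the replicate block, which added Il1b and Il18bp. In LPS minus Ctrl 5 genes were called without the arrays that stand apart, 1 on those arrays only, 5 with them as a block, and 4 with the replicate block, which added Il1f9 and Il18bp. It was 1 with only the groups compared in the fit, 6 by the methods' t-test unadjusted and 0 by that test adjusted. Of all 22206 probe sets, that t-test called 2809 unadjusted and 9 adjusted in LPS minus Ctrl. Settings chosen after seeing the data gave 0 without the arrays of low control separation, and 5 without either kind of array, which left 1 HMB+LPS and 1 LPS array that are assumed to vary like the other groups. On the arrays that stand apart only, 3 were called in HMB+LPS minus LPS and 1 in HMB minus Ctrl. The methods' t-test unadjusted gave 1 in HMB minus Ctrl, where it called 587 of all 22206 probe sets. Leaving out each array in turn gave 3 to 5 in HMB+LPS minus HMB, with 3 without HMB+LPS 2, 3 or 4, and 2 to 4 in LPS minus Ctrl, with 4 without LPS 3 or LPS 6. The samples of LPS and Ctrl, and of HMB+LPS and HMB, share only numbers, so that the calls added by the block there are no evidence of pairing. No value came from averaging the probe sets of a gene, since each of the 9 genes has 1.

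The number of all probe sets called in LPS minus Ctrl, 414 over all arrays, was 38 without the arrays of low control separation, 117 with only the groups compared, 123 on the arrays that stand apart, 230 with array weights, 670 with the replicate block, 1482 with the arrays that stand apart as a block and 2341 without them. In HMB+LPS minus HMB, 785 over all arrays, it was 357, 672, 1245, 1683, 1169, 1982 and 2283 under the same settings.

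Differences that changed sign were called neither over all arrays nor under the alternative. In HMB+LPS minus HMB, Il1r2 was −0.066 with array weights, −0.053 with the replicate block, −0.21 without the arrays of low control separation, −0.71 without either kind of array and −0.11 without the arrays that stand apart. Il18 there was 0.0026 with arrays centred on their median, 0.0077 with the arrays that stand apart as a block and 0.33 on those arrays only, where Il1rap was −0.087 and Il18 in LPS minus Ctrl was 0.40. In HMB+LPS minus LPS, Il1r2 was 0.089 and Il1rap −0.25 on the arrays that stand apart only, Il18 was 0.075 without them, and Il1rap was −0.27 without the arrays of low control separation. In HMB minus Ctrl, Il1a was −0.16, Il1r1 0.24 and Il1rap 0.069 with array weights. On the arrays that stand apart only, Il1a was −0.21, Il1rn −0.22 and Il18bp −0.15 in that comparison, and without them Il1f9 was 0.078 and Il1r1 0.063. Without the arrays of low control separation Il1a was −0.27, Il1r1 0.28 and Il1rap 0.18 in HMB minus Ctrl. The contrast between both HMB effects was −0.0042 for Il1rap with array weights, −0.24 for Il1rap and −0.072 for Il18 on the arrays that stand apart only, and −0.45 for Il1rap without those of low control separation. Without the arrays that stand apart it was −0.21 for Il1a, −0.15 for Il1b, −0.21 for Il1rn and −0.15 for Il18bp. This contrast has no value with only the groups compared or by the methods' t-test.

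Leaving out each array in turn, HMB+LPS minus HMB ran from −0.33 to 0.14 for Il18 and from −0.11 to 0.18 for Il1r2. HMB+LPS minus LPS ran from −0.78 to 1.88 for Il1a, from −0.46 to 2.39 for Il1b, from −0.33 to 0.033 for Il18, from −0.10 to 1.57 for Il1r1, from −0.28 to 0.046 for Il1r2 and from −0.052 to 0.28 for Il1rap. HMB minus Ctrl ran from −0.28 to 0.40 for Il1a, from −0.23 to 0.83 for Il1b, from −0.19 to 0.17 for Il1r1, from −0.45 to 0.43 for Il1rap and from −0.18 to 0.64 for Il18bp. The contrast between both HMB effects ran from −0.91 to 1.74 for Il1a, from −0.72 to 2.13 for Il1b, from −0.14 to 0.33 for Il18, from −0.064 to 1.61 for Il1r1 and from −0.34 to 0.54 for Il1rap. The cause of these changes was not tested.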
